A study of Homo sapiens and Mus musculus with 12 samples.

Results

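The response of endoplasmic reticulum (ER) chaperone and unfolded protein response genes to ponatinib was examined in MDA-MB-231, a human triple-negative breast cancer cell line, and in 4T1, a mouse mammary carcinoma cell line. Wild-type cells received 1 μM ponatinib, an inhibitor of several tyrosine kinases, or DMSO alone, the solvent of the drug, and were collected after 24 h. RNA-seq gene counts were analysed for 3 libraries per group, 12 in all, and the comparison asks how the drug changes the transcriptome of each line. The genes are a list of 34 human symbols and the mouse genes of the same symbols, chosen as targets of the transcription factors ATF6 and XBP1 together with the stress sensors, and with targets of ATF4 left out. All 34 were found in both count tables, among 63677 human and 47729 mouse identifiers.

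Secretory and membrane proteins enter the ER through the Sec61 channel, fold there with the help of chaperones and disulfide-forming enzymes, and leave in COPII vesicles. Proteins that fail to fold are drawn back to the cytosol and degraded, a route called ER-associated degradation (ERAD). When unfolded proteins build up, 3 ER membrane sensors respond: IRE1 (encoded by ERN1) splices the XBP1 mRNA, ATF6 is cleaved into a transcription factor, and PERK (encoded by EIF2AK3) slows translation and raises ATF4. XBP1 and ATF6 then switch on chaperone, translocation and ERAD genes through short promoter motifs.

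Those motifs link many of the genes, and the stretches below are shown because they hold the letters in promoters of genes whose results are described in detail. Windows from 250 bases before to 50 bases after each start were searched on both strands for the ER stress element (CCAAT, 9 bases of any kind, CCACG), the second ER stress element (ATTGG, 1 base, CCACG) and the unfolded protein response element (TGACGTGG). Human windows are those of RefSeq on GRCh38.p14, and mouse windows were read from GRCm39 at GENCODE starts. Each sequence is written 5′ to 3′ on the strand of its gene, with the motif letters, or their reverse complement, in capitals.
HSPA5 (human, chr9:125241381-125241419, minus strand): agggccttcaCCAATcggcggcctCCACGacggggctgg
Hspa5 (mouse, chr2:34662027-34662065, plus strand): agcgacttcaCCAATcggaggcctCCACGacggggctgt
XBP1 (human, chr22:28800593-28800631, minus strand): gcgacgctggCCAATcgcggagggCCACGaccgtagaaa
HERPUD1 (human, chr16:56932015-56932045, plus strand): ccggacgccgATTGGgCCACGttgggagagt
SDF2L1 (human, chr22:21642104-21642134, plus strand): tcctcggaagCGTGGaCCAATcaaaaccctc
Syvn1 (mouse, chr19:6096552-6096590, plus strand): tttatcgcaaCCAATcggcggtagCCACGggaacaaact
Manf (mouse, chr9:106769228-106769258, minus strand): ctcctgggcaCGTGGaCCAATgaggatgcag
Sec24d (mouse, chr3:123061109-123061136, plus strand): cccgggcgccTGACGTGGcactagcaac

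Of 30 human genes of the list with a promoter in the table, 10 held at least 1 of the 3 motifs, against 0.927% of 27305 promoters. For the mouse it was 15 of 34, against 0.897% of 21751 promoters. The mouse promoters were those of protein-coding genes, a limit not set for the human ones. Because the list was chosen as targets of factors that act through such motifs, these shares describe it and test nothing. The ER stress element was in 7 of the 30 human windows (0.0806% of all promoters) and 10 of the 34 mouse windows (0.124%). The second element was in 3 human windows (0.0549% of all) and 4 mouse windows (0.0690%), and the unfolded protein response element in 1 human window (0.795%) and 2 mouse windows (0.717%). A match only says that these letters are in the window. The stretches shown are a selection, and HYOU1, for example, had matches in both species that are not shown. No match was found in the windows of mouse Xbp1, mouse Sdf2l1, human MANF or human SYVN1.

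Each MDA-MB-231 library held between 15012884 and 17301760 counts, and each 4T1 library between 17800675 and 18951493. In each of the 4 groups the library numbered 1 lay farthest from the other two, with a chi-square per gene of 8.91 to 16.5 against 2.93 to 6.92 for the other pair. Markers of the lines were measured with the same counts. MDA-MB-231 cells with DMSO had 890 ± 105 CPM (counts scaled to a common library size) of KRT8 and 1288 ± 110 CPM of VIM (SD, n = 3), while CDH1, PTPRC and PECAM1 were at 0 in those libraries. 4T1 cells with DMSO had 830 ± 57.7 CPM of Cdh1 and 2389 ± 198 CPM of Krt8, with Pgr and Cd3e at 0. EPCAM was low in both lines, at 6.44 ± 0.711 CPM in MDA-MB-231 and 2.86 ± 0.0668 CPM in 4T1. The leukocyte and endothelial markers PTPRC, CD68, CD3E and PECAM1 averaged at most 1.88 CPM in any group. Of the receptors that triple-negative tumours lack, PGR averaged at most 0.643 CPM, ESR1 was at 0.0635 CPM in MDA-MB-231 and Esr1 at 3.41 CPM in 4T1 with DMSO, and ERBB2 was at 98.1 CPM in MDA-MB-231 and 91.9 CPM in 4T1. With ponatinib, KRT8 rose by 0.88, ERBB2 by 0.81 and EPCAM by 0.41 on the log2 scale in MDA-MB-231, and VIM fell by 0.66. In 4T1, Esr1 rose by 0.89 and Krt8 by 0.24, and Krt18 fell by 0.54. The part of these markers in the results was not tested.

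Most of these genes fell with ponatinib in 4T1, and most responded more negatively there than in MDA-MB-231. In MDA-MB-231, 18 of 34 genes fell and 4 rose (HERPUD1, SEL1L, SYVN1 and WFS1) in edgeR's quasi-likelihood test, at a Benjamini-Hochberg adjusted p under 0.05 over 14610 genes. Over all genes tested there, 26.8% fell and 27.2% rose. Changes of single genes are given below on the log2 scale. In 4T1, 28 of 33 tested genes fell and 0 rose, where 29.4% of 13286 genes fell and 29.5% rose. The count of 0 was also obtained at an unadjusted p under 0.05 and with DESeq2. In bulk RNA, fewer cells of a state and less RNA per cell cannot be told apart. Derl3 was too low in 4T1 to be tested, with 5 to 14 counts per library.

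The median log2 fold change of the list was -0.25 in MDA-MB-231, where all genes had a median of 0.02, and -0.68 in 4T1, where all genes had a median of -0.00. A fall of at least 1.5-fold was found for 6 genes in MDA-MB-231 (14.1% of all genes) and for 21 genes in 4T1 (12.8%). A rise of that size was found for 2 genes in MDA-MB-231 (18.5% of all genes), HERPUD1 and WFS1. The ponatinib and DMSO libraries did not overlap for 29 of 34 genes in MDA-MB-231 (60.4% of all genes) and 28 in 4T1 (63.4%). With 3 libraries against 3, an exact two-sided permutation test of 1 gene cannot go below 0.1. The summed level of the 34 genes went from 8109 ± 28.2 CPM in DMSO libraries to 7119 ± 76.5 CPM in ponatinib libraries of MDA-MB-231 (SD, n = 3). In 4T1 it went from 10400 ± 230 CPM to 6065 ± 56.3 CPM.

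With the replicate number as a block, 26 genes fell in MDA-MB-231 and 30 in 4T1. Over all genes the block gave 4873 lower of 14610 in MDA-MB-231, against 3918 without it. In 4T1 it gave 4310 lower of 13286, against 3909. The block added HSP90B1, CALR, CANX, PDIA6, P4HB, EDEM1, DERL1 and ERN1 in MDA-MB-231, with adjusted p of 0.0103, 0.0143, 0.00994, 0.000227, 0.000651, 0.0335, 0.00239 and 0.0321. Of these, all but CALR and ERN1 also passed without the block when the libraries numbered 1 were left out (adjusted p of 0.0049 to 0.0497). In 4T1 the block added Derl2 and Wfs1 (adjusted p of 0.0185 and 0.02305). Under a scaling by total counts, 14 genes of the list fell in MDA-MB-231 and the all-gene median stood at 0.11. In 4T1 that scaling gave 26 lower genes and an all-gene median of 0.12. Over all genes, total counts gave 3097 lower in MDA-MB-231 and 2935 lower in 4T1.

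**Figure D1:**
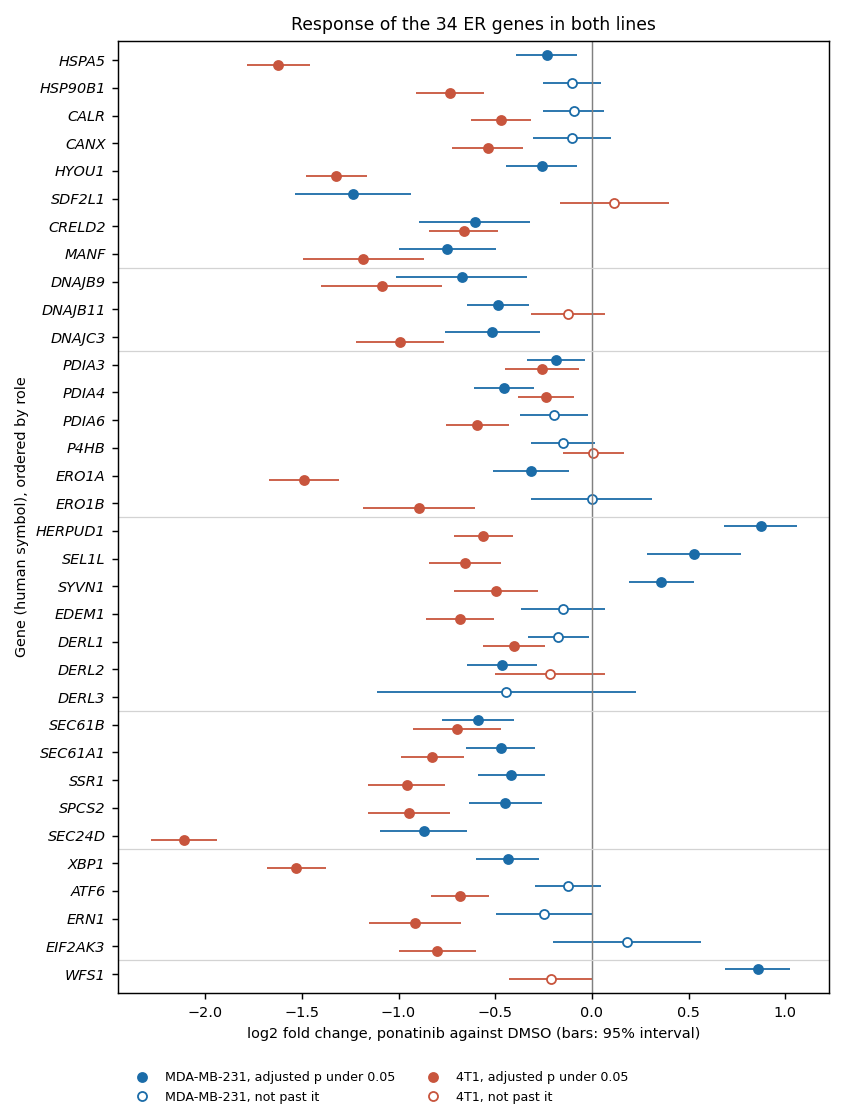
Log2 fold change of each of the 34 genes with ponatinib against DMSO (x axis), in MDA-MB-231 (blue) and 4T1 (red), ordered by role from chaperones (top) to WFS1 (bottom). Bars are 95% intervals, filled points have an adjusted p under 0.05, and Derl3 was not tested in 4T1. Most points lie left of 0, with the 4T1 points farther left for HSPA5, HYOU1, ERO1A, SEC24D and XBP1, and only HERPUD1, SEL1L, SYVN1 and WFS1 have filled points right of 0.

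The lumenal chaperones bind unfolded chains inside the ER. In MDA-MB-231, 5 of 8 fell (26.8% of all genes), namely HSPA5, HYOU1, SDF2L1, CRELD2 and MANF. In 4T1, 7 of 8 fell (29.4%), all but Sdf2l1. HSPA5 (BiP, the main ER HSP70; ENSG00000044574, chr9:125234853-125241382 on hg38) measured 877, 923 and 941 CPM with DMSO and 746, 777 and 808 CPM with ponatinib in MDA-MB-231. Its groups did not overlap, and it fell by 0.23 on the log2 scale (SE 0.07, adjusted p = 0.0162). In 4T1, Hspa5 (ENSMUSG00000026864, chr2:34661982-34668880 on GRCm39) measured 2630, 2751 and 2760 CPM with DMSO and 895, 890 and 860 CPM with ponatinib. That left 32.5% of the DMSO level, a log2 fold change of -1.62 ± 0.08 (SE, adjusted p = 4.14e-10). The annotated exons of Hspa5 overlap those of Rabepk on the opposite strand over 44.2% of their length.

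The HSP110-type chaperone HYOU1 followed the same order. It measured 365, 385 and 399 CPM with DMSO and 290, 320 and 350 CPM with ponatinib in MDA-MB-231, and 320, 333 and 308 against 136, 122 and 127 CPM in 4T1. Its log2 fold change was -0.26 in MDA-MB-231 (SE 0.08, adjusted p = 0.0212) and -1.32 in 4T1 (SE 0.07, adjusted p = 2.61e-09). In MDA-MB-231 the call for HSPA5 was lost without DMSO replicate 2, DMSO replicate 3 or ponatinib replicate 2 (adjusted p of 0.0548 to 0.0641) and with total counts (0.135). The call for HYOU1 was lost without any of those libraries or ponatinib replicate 1 (adjusted p of 0.0566 to 0.0790) and with total counts (0.163).

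SDF2L1, a partner of the HSPA5 cycle, had the reverse order. In MDA-MB-231 (ENSG00000128228, chr22:21642302-21644299 on hg38) it measured 86.1, 67.5 and 68.7 CPM with DMSO and 38.4, 27.6 and 28.4 CPM with ponatinib, and it had the largest fall of the list in that line, by 1.24 on the log2 scale (SE 0.14, adjusted p = 1.63e-05). In 4T1 the groups overlapped, at 23.1, 18.4 and 15.9 CPM with DMSO and 21.8, 19.5 and 20.9 CPM with ponatinib (log2 fold change 0.12, adjusted p = 0.467). CRELD2 and MANF, secreted ER stress proteins, fell in both lines. CRELD2 measured 60.2, 45.4 and 55.9 against 41.2, 35.1 and 30.01 CPM in MDA-MB-231 and 133, 114 and 113 against 79.2, 72.0 and 76.5 CPM in 4T1, with log2 fold changes of -0.61 and -0.66. MANF measured 165, 137 and 127 against 95.9, 84.5 and 75.0 CPM in MDA-MB-231 and 54.0, 73.2 and 72.3 against 22.3, 34.4 and 31.4 CPM in 4T1, with log2 fold changes of -0.75 and -1.18. The annotated exons of mouse Manf overlap those of Rbm15b on the same strand over 32.6% of their length.

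HSP90B1 (GRP94), CALR and CANX, the chaperones with general or sugar-directed roles, fell only in 4T1 with the settings of the report. In MDA-MB-231 they passed with the block. HSP90B1 and CANX also passed there without the libraries numbered 1 (adjusted p of 0.0330 and 0.0497). Hsp90b1 measured 285, 328 and 334 CPM with DMSO and 177, 202 and 191 CPM with ponatinib in 4T1, a log2 fold change of -0.73 (SE 0.08, adjusted p = 3.4e-06). In MDA-MB-231 it measured 863, 861 and 842 against 822, 798 and 771 CPM, with a log2 fold change of -0.10 and an interval of -0.25 to 0.05 (adjusted p = 0.235). CALR, a lectin chaperone and calcium store, measured 1612, 1498 and 1505 against 1470, 1395 and 1458 CPM in MDA-MB-231 (log2 fold change -0.09, adjusted p = 0.284) and 685, 673 and 660 against 464, 485 and 506 CPM in 4T1 (a log2 fold change of -0.47, adjusted p = 6.22e-05). CALR was the highest gene of the list per kilobase in MDA-MB-231 with DMSO, at 809 CPM per kilobase, and Hspa5 in 4T1, at 548 CPM per kilobase. CANX, the membrane-bound lectin chaperone, had a log2 fold change of -0.10 in MDA-MB-231 (adjusted p = 0.36) and fell by 0.54 in 4T1.

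**Figure D2:**
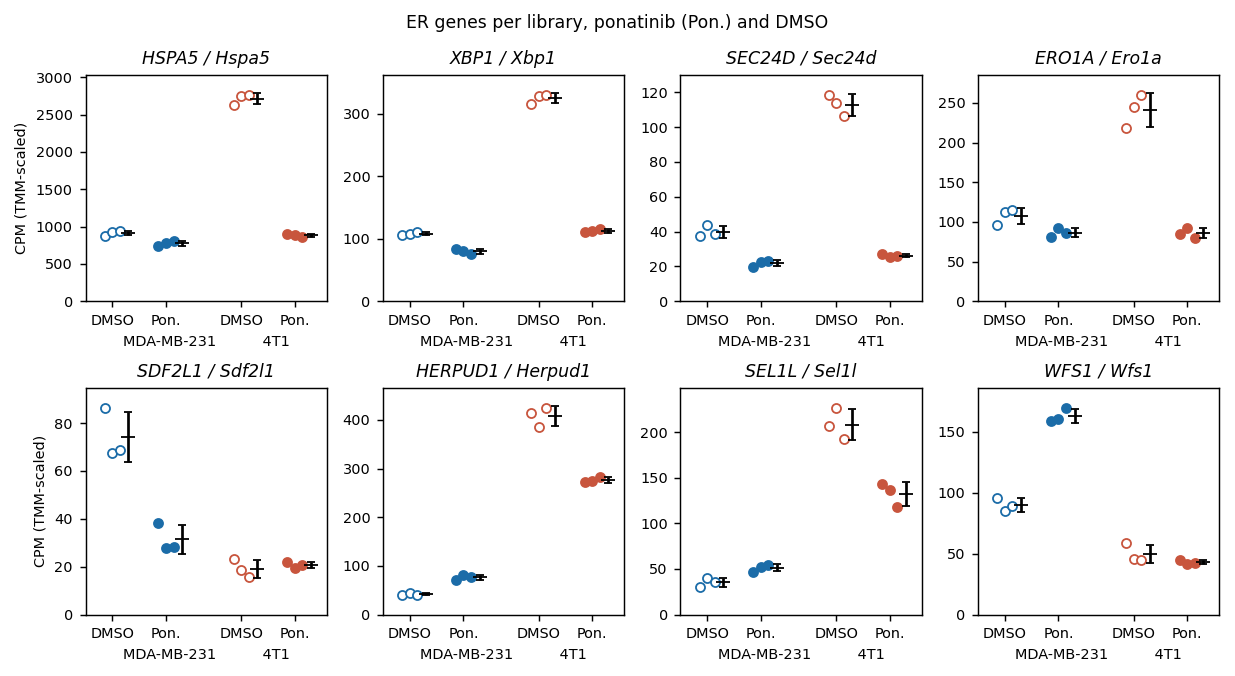
Level of 8 genes in CPM with TMM scaling (y axis, linear from 0) in each library, for MDA-MB-231 (blue) and 4T1 (red), with DMSO (open points) and ponatinib (filled points). Bars beside the points are the mean and SD of 3 libraries. Hspa5, Xbp1, Sec24d and Ero1a drop steeply in 4T1 and less in MDA-MB-231, SDF2L1 drops in MDA-MB-231, HERPUD1 and SEL1L rise in MDA-MB-231 and fall in 4T1, and WFS1 rises in MDA-MB-231.

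The J-domain co-chaperones deliver substrates to HSPA5 and trigger its ATPase. All 3 fell in MDA-MB-231 (26.8% of all genes), and 2 of 3 fell in 4T1 (29.4%). DNAJB9 (ERdj4), a low gene, measured 10.3, 14.1 and 13.1 CPM with DMSO and 7.82, 8.79 and 6.95 CPM with ponatinib in MDA-MB-231, and fell by 0.67 (SE 0.16, adjusted p = 0.00322). In 4T1 it measured 28.0, 38.1 and 37.1 against 13.0, 19.0 and 16.5 CPM and fell by 1.09 (SE 0.15, adjusted p = 1.74e-05). DNAJC3 (p58IPK), which also restrains PERK, had 38.9, 43.8 and 47.6 against 26.4, 31.1 and 33.6 CPM in MDA-MB-231 and 35.9, 43.4 and 46.1 against 20.1, 22.0 and 20.9 CPM in 4T1. Its groups were apart in both lines, with log2 fold changes of -0.52 and -0.99. DNAJB11 (ERdj3) fell by 0.49 in MDA-MB-231 (adjusted p = 0.000167), while its 4T1 groups overlapped (log2 fold change -0.12, adjusted p = 0.261).

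Disulfide bonds are formed and rearranged by the protein disulfide isomerases and recharged by the ERO1 oxidases. In MDA-MB-231, 3 of 6 genes fell (26.8% of all genes), namely PDIA3, PDIA4 and ERO1A. In 4T1, 5 of 6 fell (29.4%), all but P4hb. ERO1A, the widely expressed oxidase, measured 96.1, 112 and 114 CPM with DMSO and 81.3, 92.6 and 85.7 CPM with ponatinib in MDA-MB-231, and 218, 245 and 260 against 85.4, 92.2 and 80.2 CPM in 4T1. Its log2 fold change was -0.32 in MDA-MB-231 (SE 0.09, adjusted p = 0.0109) and -1.49 in 4T1 (SE 0.08, adjusted p = 2.96e-09). Without MDA-MB-231 DMSO replicate 3 the first of these calls was lost (adjusted p = 0.0540), as it was with total counts (0.0950).

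ERO1B, its paralog, was low in both lines. It measured 8.29, 11.3 and 9.4996 against 9.84, 9.68 and 9.58 CPM in MDA-MB-231, where the groups overlapped, and 10.8, 9.67 and 10.5 against 5.93, 5.58 and 5.15 CPM in 4T1, a log2 fold change of -0.89 (adjusted p = 5.85e-05). PDIA4, an isomerase with 3 active domains, was the clearest of its family in MDA-MB-231. It measured 312, 295 and 317 against 220, 229 and 225 CPM there, a log2 fold change of -0.45 (adjusted p = 0.000209), and 143, 146 and 151 against 124, 125 and 124 CPM in 4T1, a log2 fold change of -0.24 (adjusted p = 0.00713) that was lost with total counts (0.134). PDIA3, the isomerase that works with CALR and CANX, fell in both lines, with a log2 fold change of -0.18 in MDA-MB-231 (adjusted p = 0.0403) and -0.26 in 4T1 (adjusted p = 0.0224). The MDA-MB-231 call for PDIA3 was lost without any of 5 libraries, DMSO replicate 1 being the exception (adjusted p of 0.0547 to 0.128), and the 4T1 call without DMSO replicate 2, DMSO replicate 3 or ponatinib replicate 1 (0.0780 to 0.105). With total counts PDIA3 passed in neither line (adjusted p of 0.268 in MDA-MB-231, 0.201 in 4T1), and in MDA-MB-231 it also did not pass when each library had to hold 10 counts of a gene (0.0736). A processed copy, PDIA3P1, averaged 253 counts in MDA-MB-231, where PDIA3 averaged 4842. PDIA6 fell by 0.59 in 4T1, and P4HB, the founding member of the family, had a log2 fold change of -0.15 in MDA-MB-231, and of 0.01 in 4T1.

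The ERAD genes included those that moved in opposite directions in the lines. In MDA-MB-231, 3 of 7 rose (27.2% of all genes), namely HERPUD1, SEL1L and SYVN1, and DERL2 fell (26.8%). In 4T1, 5 of 6 tested genes fell (29.4%), those 3 among them. SYVN1 (HRD1) is the membrane ubiquitin ligase of this route, SEL1L its cofactor and HERPUD1 a scaffold of the same complex. HERPUD1 in MDA-MB-231 (ENSG00000051108, chr16:56932142-56944864 on hg38) measured 40.9, 43.7 and 40.3 CPM with DMSO and 70.7, 81.7 and 76.4 CPM with ponatinib. It rose to 183% of the DMSO level, a log2 fold change of 0.87 ± 0.09 (SE, adjusted p = 6.32e-06). In 4T1, Herpud1 measured 415, 386 and 424 against 272, 275 and 283 CPM, a log2 fold change of -0.56 (SE 0.07, adjusted p = 1.15e-05).

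SEL1L showed the same pair of directions, with the groups apart in both lines. It measured 30.6, 40.3 and 35.9 against 47.1, 52.4 and 54.5 CPM in MDA-MB-231, a rise of 0.53 (SE 0.11, adjusted p = 0.00166), and 207, 226 and 192 against 143, 136 and 117 CPM in 4T1, a log2 fold change of -0.66 (SE 0.09, adjusted p = 1.74e-05). SYVN1 rose by 0.36 in MDA-MB-231 (adjusted p = 0.00179) and fell by 0.49 in 4T1 (adjusted p = 0.000736). EDEM1, which takes misfolded glycoproteins out of the folding cycle, measured 86.1, 104 and 95.04 against 58.4, 60.8 and 58.7 CPM in 4T1, a log2 fold change of -0.68. In MDA-MB-231 its groups overlapped, at 48.1, 59.1 and 56.9 against 45.5, 52.4 and 49.8 CPM (log2 fold change -0.15, adjusted p = 0.219). The derlins are membrane proteins of the exit channel. DERL1 fell by 0.40 in 4T1, and DERL2 fell by 0.46 in MDA-MB-231. DERL3 measured 1.99, 2.33 and 1.57 against 1.83, 0.956 and 1.53 CPM in MDA-MB-231 (15 to 36 counts per library), and 77.0% of its annotated exons lie opposite those of SMARCB1, which averaged 2856 counts, so a strand-blind count of it is uncertain.

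Of the translocation and export genes, 5 of 5 fell in MDA-MB-231 (26.8% of all genes) and 5 of 5 in 4T1 (29.4%). SEC61B and SEC61A1 are subunits of the protein-conducting channel, SSR1 belongs to the translocon-associated complex, SPCS2 to signal peptidase, and SEC24D is a cargo adaptor of the COPII coat. SEC24D measured 37.2, 43.8 and 38.6 CPM with DMSO and 19.9, 22.6 and 22.9 CPM with ponatinib in MDA-MB-231 (ENSG00000150961, chr4:118722823-118838683 on hg38), a log2 fold change of -0.87 (SE 0.10, adjusted p = 2.5e-05). In 4T1 (ENSMUSG00000039234, chr3:123061103-123159291 on GRCm39) it measured 118, 114 and 106 against 27.0, 25.5 and 25.9 CPM, a log2 fold change of -2.11 (SE 0.08, adjusted p = 5.28e-11), and this was the largest change of the list in either line. SEC61B measured 132, 126 and 119 against 92.0, 80.0 and 79.1 CPM in MDA-MB-231 and 110, 81.6 and 102 against 66.9, 55.1 and 59.0 CPM in 4T1. Its log2 fold changes were -0.59 and -0.70. The other 3 had log2 fold changes from -0.47 to -0.42 in MDA-MB-231. In 4T1 these ran from -0.96 to -0.82. A processed copy of SPCS2 in the human genome, SPCS2P4, averaged 93.5 counts, where SPCS2 averaged 1362.

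Of the sensors and transducers, XBP1 alone fell in MDA-MB-231 without the block (26.8% of all genes), while all 4 fell in 4T1 (29.4%). XBP1 encodes the transcription factor that IRE1 activates by splicing, and gene counts do not tell the spliced from the unspliced form. It measured 106, 107 and 110 against 83.5, 79.7 and 76.1 CPM in MDA-MB-231 (ENSG00000100219, chr22:28794555-28800597 on hg38), a log2 fold change of -0.44 (SE 0.07, adjusted p = 0.000419). In 4T1 it measured 315, 328 and 329 against 110, 112 and 116 CPM, a log2 fold change of -1.53 (SE 0.07, adjusted p = 3.27e-10). The annotated exons of mouse Xbp1 overlap those of Ccdc117 on the opposite strand over 22.0% of their length. ATF6 measured 56.1, 57.7 and 58.6 against 51.0, 53.1 and 54.1 CPM in MDA-MB-231 (log2 fold change -0.12, adjusted p = 0.196) and 354, 374 and 360 against 231, 229 and 219 CPM in 4T1, a log2 fold change of -0.68.

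ERN1 and EIF2AK3, the genes of the kinases IRE1 and PERK, were low in MDA-MB-231. ERN1 measured 15.3, 15.1 and 16.9 against 12.4, 13.6 and 13.8 CPM there (log2 fold change -0.25, adjusted p = 0.0842) and 435, 461 and 372 against 266, 212 and 194 CPM in 4T1, a log2 fold change of -0.92. EIF2AK3 overlapped between the groups in MDA-MB-231, at 5.70, 4.92 and 4.28 against 4.92, 5.86 and 6.08 CPM (log2 fold change 0.18, adjusted p = 0.406). In 4T1 it measured 48.995, 43.1 and 45.4 against 26.8, 24.2 and 28.1 CPM, a log2 fold change of -0.80.

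WFS1 (wolframin) is an ER membrane protein tied to calcium handling and to control of ATF6. In MDA-MB-231 (ENSG00000109501, chr4:6269849-6303265 on hg38) it measured 95.9, 85.2 and 88.6 CPM with DMSO and 159, 160 and 169 CPM with ponatinib, 181% of the DMSO level and a log2 fold change of 0.86 ± 0.08 (SE, adjusted p = 3.01e-06). In 4T1 it measured 58.3, 45.9 and 44.9 against 44.8, 41.5 and 42.3 CPM. The lowest DMSO and the highest ponatinib library of 4T1 nearly touched, and the log2 fold change was -0.21 with an interval of -0.43 to 0.01 (adjusted p = 0.0875).

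The responses of the lines were then compared with each other, as the interaction of line and treatment over 12504 genes with the same symbol in both species. Of the 34 genes, 22 responded more negatively in 4T1 (18.8% of all genes) and 2, SDF2L1 and DNAJB11, more positively (23.1%). The median difference was -0.49, where all genes had a median of 0.03. HERPUD1 had the most negative difference, -1.43 ± 0.11 (SE, adjusted p = 5.06e-09), and HSPA5 followed at -1.39 ± 0.11 (adjusted p = 5.92e-09). These 2 intervals, -1.66 to -1.21 and -1.61 to -1.17, overlap. SDF2L1 stood at the other end, with a difference of 1.35 ± 0.20 (adjusted p = 2.19e-05).

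Differences also passed the test for SEC24D (-1.24), SEL1L (-1.18), ERO1A (-1.17), XBP1 (-1.09), WFS1 (-1.07) and HYOU1 (-1.06). They did not pass for CRELD2, whose interval was -0.40 to 0.28, or for SEC61B, with -0.42 to 0.20. MANF (adjusted p = 0.0964), DNAJB9 (0.16), PDIA4 (0.078), DERL1 (0.08) and DERL2 (0.27) passed when the replicate number was a block. Their adjusted p in that test were 0.000141, 0.0269, 0.0179, 0.0125 and 0.0319, so that the counts became 25 and 4. The share of all genes whose difference passed with the block was not counted. Without the block, PDIA4 passed with DESeq2 (0.0180) and DERL1 with at least 10 counts in every library (0.0463). MANF passed without the libraries numbered 1 (0.00299). It also passed without MDA-MB-231 DMSO replicate 1, 4T1 DMSO replicate 1 or 4T1 ponatinib replicate 2 (0.0263 to 0.0446). The call for DNAJB11 was lost without 4T1 ponatinib replicate 2 (adjusted p = 0.0706). The call for SEC61A1 was lost without MDA-MB-231 DMSO replicate 3 (0.0568). The call for DNAJC3, with a difference of -0.48 (adjusted p = 0.0235), was lost with total counts (0.0555) and without any of 6 libraries, namely MDA-MB-231 DMSO replicate 1, MDA-MB-231 ponatinib replicates 2 and 3, 4T1 DMSO replicates 2 and 3 and 4T1 ponatinib replicate 1 (0.0519 to 0.0722).

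By their calls in the lines, 15 genes were lower in both (15% of the 9842 genes tested in both lines), 10 were lower in 4T1 and not called in MDA-MB-231 (12.7% of all genes), and 3 were lower in MDA-MB-231 and not called in 4T1 (11.5% of all genes), namely SDF2L1, DNAJB11 and DERL2. The combination of higher in MDA-MB-231 and lower in 4T1 was held by HERPUD1, SEL1L and SYVN1, against 5.07% of all genes. WFS1 was higher in MDA-MB-231 and not called in 4T1, P4HB was called in neither line, and DERL3 was not called in MDA-MB-231 and not tested in 4T1. Besides passing with the block in 4T1, Derl2 was lower there without DMSO replicate 1 (adjusted p = 0.0173 in edgeR). Wfs1 was likewise lower in 4T1 without DMSO replicate 3 (0.0422).

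**Figure D3:**
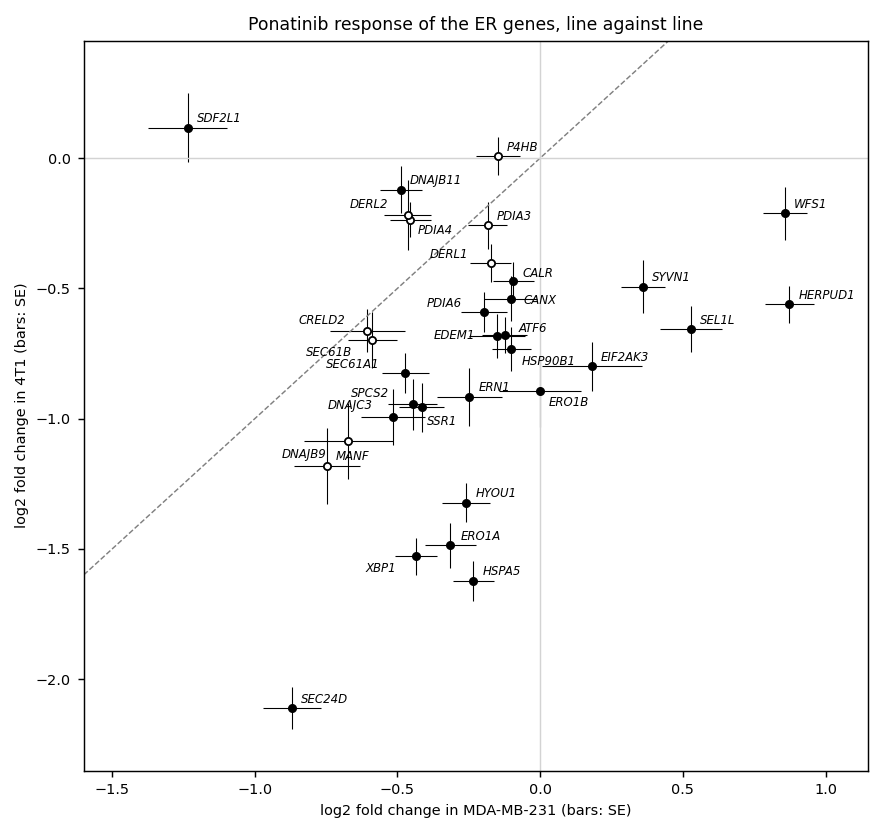
Log2 fold change with ponatinib in 4T1 (y axis) against MDA-MB-231 (x axis) for the 33 genes tested in both lines, with bars of 1 SE. Filled points have an adjusted p under 0.05 for the difference between the lines, and the dashed line marks equal responses. Most points lie below the dashed line, SEC24D, HSPA5, XBP1 and ERO1A lowest, HERPUD1, SEL1L, SYVN1 and WFS1 lie at the lower right, and SDF2L1 lies alone at the upper left.

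The responses can be set beside the promoter letters. In 4T1, 14 tested genes with at least 1 motif had a median log2 fold change of -0.70, with 13 lower, and 19 without had a median of -0.68, with 15 lower. In MDA-MB-231, 10 genes with a motif had a median of -0.17, with 5 lower and 1 higher, and 20 without had a median of -0.37, with 11 lower and 3 higher. These values were not tested.

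Other genes of the same pathway were counted by lists, which were written with earlier results of these data known. The translocon, signal peptidase and glycosylation genes outside the 34 had 1 higher (27.2% of all genes) and 14 of 23 lower (26.8%) in MDA-MB-231. In 4T1 they had 15 of 22 lower (29.4%) and 0 higher (29.5%), a 0 also given at an unadjusted p under 0.05 and by DESeq2. SSR3, a partner of SSR1, went from 390 ± 6.17 to 116 ± 2.89 CPM in MDA-MB-231 (log2 fold change -1.75, adjusted p = 7.53e-09). In 4T1, Srpra, the receptor of the signal recognition particle, went from 248 ± 6.11 to 127 ± 4.45 CPM (log2 fold change -0.96). Both also fell in the other line, Ssr3 by 0.83 in 4T1 and SRPRA by 0.68 in MDA-MB-231. COPII and retrieval genes had 0 higher (27.2% of all genes) and 12 of 20 lower (26.8%) in MDA-MB-231. There 1 was higher at an unadjusted p under 0.05, and 0 by DESeq2. In 4T1 they had 16 of 20 lower (29.4%) and 1 higher (29.5%). Kdelr3, which returns chaperones to the ER, fell by 2.01 in 4T1, from 12.9 ± 0.629 to 3.21 ± 0.398 CPM.

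Other ER folding genes were mixed. In MDA-MB-231, 4 rose (27.2% of all genes) and 6 of 26 fell (26.8%). In 4T1, 8 of 26 fell (29.4%) and 5 rose (29.5%). With the block, 12 fell and 6 rose in MDA-MB-231, and with total counts 3 fell and 6 rose. Their 4T1 median, -0.06, became 0.06 with total counts. CRELD1, a relative of CRELD2, rose by 1.22 in MDA-MB-231, from 14.3 ± 1.28 to 33.3 ± 2.95 CPM (adjusted p = 3.51e-06). QSOX1, a sulfhydryl oxidase, fell by 0.98 in that line, and Hspa13, an HSP70 relative, fell by 1.56 in 4T1. Other ERAD genes had 4 higher (27.2% of all genes) and 10 of 21 lower (26.8%) in MDA-MB-231. In 4T1 they had 9 of 20 lower (29.4%) and 2 higher (29.5%). Among them VCP, the ATPase that pulls substrates into the cytosol, fell by 0.66 in MDA-MB-231, and Selenos, one of its membrane partners, fell by 0.81 in 4T1. Vcp was not called in 4T1 (log2 fold change 0.12), while SELENOS also fell in MDA-MB-231, by 0.58. With total counts 4 of the 20 were higher in 4T1, and their median of -0.12 became 0.00.

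The other unfolded protein response regulators had 3 higher (27.2% of all genes) and 6 of 14 lower (26.8%) in MDA-MB-231. In 4T1 they had 3 of 14 lower (29.4%) and 6 higher (29.5%). Their median in 4T1, -0.05, became 0.07 with total counts, and in MDA-MB-231 that scaling gave 5 lower and 5 higher, where the block gave 8 lower and 5 higher. ATP2A2, the calcium pump of the ER, fell by 0.67 in both lines, and Stim1, an ER calcium sensor, rose by 1.06 in 4T1. CREB3L1, a membrane-bound factor related to ATF6, rose by 1.09 in MDA-MB-231.

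The PERK and ATF4 outputs, the genes left out of the 34, had opposite counts in the lines. In MDA-MB-231, 19 of 24 rose (27.2% of all genes) and 1 fell (26.8%), and their median stood at 0.47 on the log2 scale. For 4T1 the counts were 2 of 24 higher (29.5%) and 17 lower (29.4%), and the median stood at -0.42. DDIT3 (CHOP), a transcription factor of prolonged stress, of MDA-MB-231 cells rose from 11.6 ± 2.89 CPM with DMSO to 32.6 ± 5.83 CPM with ponatinib (282% of the DMSO level), and DDIT4 rose by 4.13. In 4T1, Ddit4 fell by 0.75, from 448 ± 34.9 to 267 ± 26.9 CPM, and Atf3, an ATF4 target, fell by 0.94. The difference between the lines was not tested for these lists.

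**Figure D4:**
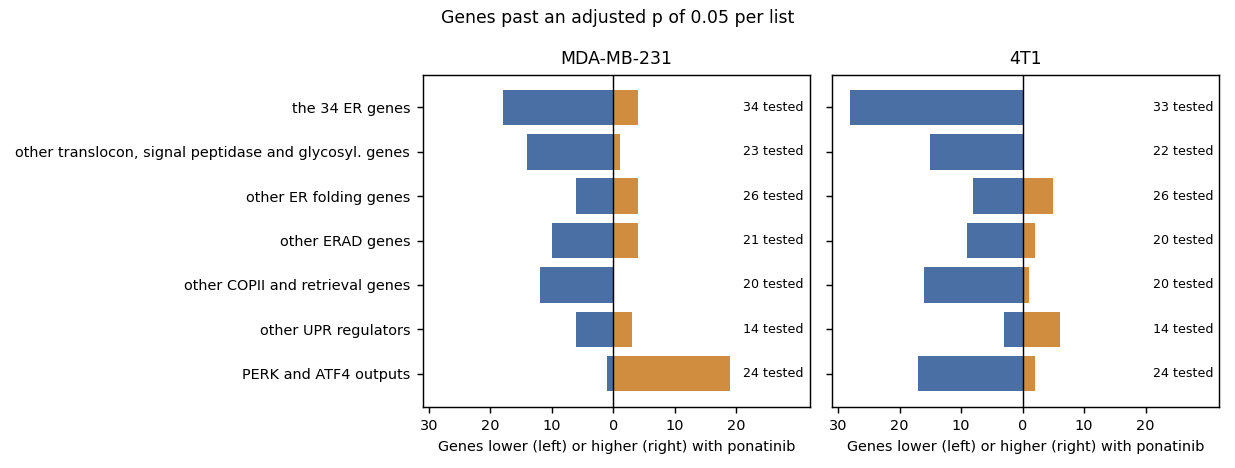
Number of genes lower (blue, to the left) and higher (orange, to the right) with ponatinib at an adjusted p under 0.05, for the 34 ER genes and 6 other lists, in MDA-MB-231 and 4T1. The number tested stands beside each bar. Lower genes outnumber higher ones for the 34 genes (18 against 4, and 28 against 0), and the bar of the PERK and ATF4 outputs points right in MDA-MB-231 (19 against 1) and left in 4T1 (17 lower against 2 higher).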

How the data were processed

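The authors extracted RNA with TRIzol, made libraries with a NEBNext Ultra kit, used HISAT2 for alignment to hg38 or GRCm39, and took gene-level reads with HTSeq. The deposited files hold raw counts per gene, not normalized. Tool versions, annotation and strand setting are not given in the sources used here. Identifiers were matched to GENCODE v44 (81.9% of human identifiers, 99.3% of counts) and vM39 (91.1% and 99.8%), which also gave coordinates and exon overlaps.

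Each line was tested apart with the quasi-likelihood test of edgeR 4.0.16 under R 4.3.3, after filterByExpr and TMM, with Benjamini-Hochberg adjusted p-values and a threshold of 0.05. CPM were computed here from TMM-scaled totals, and levels per kilobase use the canonical transcript. The difference between the lines was the interaction of line and treatment over genes sharing a symbol, letter case ignored. Each SE was derived from the test, as the absolute log2 fold change divided by the square root of its F statistic. The intervals were formed from that SE and the t distribution. edgeR's common coefficient of biological variation was 0.0990 (MDA-MB-231) and 0.0869 (4T1). The steps were also run on simulated data with far fewer changed genes than were called here and no effect of the replicate number. Those runs therefore do not cover either feature of these data. Alternatives were DESeq2 1.42.0, its size factors, total counts, filtering not at all or on 10 counts in every library, stricter thresholds, the replicate block, each replicate left out, and, chosen after seeing the data, both groups without the libraries numbered 1.

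Libraries sharing a number deviated together from their group means (MDA-MB-231 r of 0.345, 0.111 and 0.133, 4T1 r of 0.213, 0.119 and 0.115). The main tests did not pair the libraries. The numbers were used as pairs only in the replicate block, from these correlations alone, since no source says what a number marks. Nothing says that libraries came from separate cultures, so p-values measure only the spread between these libraries.

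The 34 genes and the other lists were chosen with earlier results of these data known. Of each other list, up to 3 genes per line could be named, those past the threshold with the largest change and at least 10 CPM in the higher group. Values per library follow a list of genes set with the design.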

Additional observations from a re-analysis of the deposited data

Results flagged for a closer look

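For 24 of the 34 genes the response to ponatinib differed between the lines by the interaction test in edgeR (adjusted p under 0.05), which is what brought them here. Values are the log2 response in 4T1 minus that in MDA-MB-231. For the chaperones and co-chaperones they were -1.39 for HSPA5, -0.63 for HSP90B1, -0.38 for CALR, -0.44 for CANX, -1.06 for HYOU1, 1.35 for SDF2L1, 0.37 for DNAJB11 and -0.48 for DNAJC3. For the disulfide enzymes they were -0.40 for PDIA6, -1.17 for ERO1A and -0.89 for ERO1B. For the ERAD genes they were -1.43 for HERPUD1, -1.18 for SEL1L, -0.85 for SYVN1 and -0.53 for EDEM1. Translocation and export genes had -0.35 for SEC61A1, -0.54 for SSR1, -0.50 for SPCS2 and -1.24 for SEC24D. The transducers had -1.09 for XBP1, -0.55 for ATF6, -0.67 for ERN1 and -0.98 for EIF2AK3, and WFS1 had -1.07. Groups of 3 libraries are too small to test for an outlying library.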

How the results depend on the processing

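Of the alternatives run for single genes, 400 of 442 in MDA-MB-231, 415 of 429 in 4T1 and 620 of 645 for the difference kept both direction and side of the threshold. A fold of at least 1.5 left 2 higher genes and 6 lower genes in MDA-MB-231, and a difference more positive in 4T1 for 1 gene and more negative for 13. More positive differences numbered 1 at an adjusted p under 0.01, 4 with the replicate block and 1 to 2 when each replicate was left out. For the differences, the shares of all genes at these settings were not counted. With total counts the list's median log2 fold change was -0.16 (MDA-MB-231) and -0.57 (4T1), and without the libraries numbered 1 it was -0.72 in 4T1. Rises made up 60.0% of all MDA-MB-231 calls and 62.3% of all 4T1 calls with total counts, against 50.4% and 50.1% with TMM. The signs that turned belonged to values that did not pass with the settings of the report, although CALR in MDA-MB-231 passed with the replicate block. In MDA-MB-231 these were CALR (0.0016 with total counts) and ERO1B (0.0905 with total counts, 0.0274 with at least 10 counts, 0.0047 with the replicate block, and -0.11 to 0.12 with a replicate left out). In 4T1 they were P4HB (-0.0017 with DESeq2 and with its size factors, -0.012 to 0.0337 with a replicate left out) and SDF2L1 (-0.0037 to 0.27 with a replicate left out). For the difference they were CRELD2 (-0.17 to 0.0661 with a replicate left out, and 0.0299 without the libraries numbered 1) and DERL3 (-0.30 to 0.61 with a replicate left out). The replicate block changed no call of these genes other than those given in the report. The cause of these changes was not tested. Depth limits DERL3, at 15 to 36 counts per MDA-MB-231 library.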
